A study of Mus musculus with 12 samples.

Results

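Orexin and melanin-concentrating hormone (MCH) are neuropeptides made by separate, intermingled neurons of the lateral hypothalamus, and their systems were measured through 5 genes chosen by name: the ligand precursors Hcrt (prepro-orexin) and Pmch (pro-MCH) and the receptors Hcrtr1, Hcrtr2 and Mchr1. The 5 were taken out of 27308 gene symbols with a probe on the array, and 9 probes carried their names. Hypothalamic RNA of 12 male C57BL/6 mice was hybridised to single-colour Agilent arrays, 1 array per mouse, in 4 groups of 3. WT were wild-type controls, KO were Asmt-knockout controls, and the swimming WT and swimming KO groups were wild-type and Asmt-knockout mice that swam; WT or KO alone always means the controls. Asmt encodes the last enzyme of melatonin synthesis. The knockout line was made with Cas9 and guide RNA, descended from a founder with a 20 bp deletion, and was backcrossed for 3 generations, with wild-type mice drawn from its littermates. The labels gave all groups as 6 to 7 weeks old, which the study's methods gave as the age when swimming began, before an adaptation period and several weeks of training, so the mice were older when the tissue was taken. They were kept under 12 h of light and 12 h of dark. The hypothalamus was taken whole, so that a change in the number of neurons of a type and a change in the RNA of each neuron cannot be told apart in these values.

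Orexin neurons project widely through the brain, promote and stabilise wakefulness, and raise feeding and activity, and loss of orexin signalling causes narcolepsy. Hcrt protein is cut into orexin A and orexin B, which act on the G protein-coupled receptors Hcrtr1, with a preference for orexin A, and Hcrtr2, which binds both. MCH neurons favour feeding and rapid eye movement sleep, and in the mouse the peptide acts through Mchr1, a receptor that signals mainly through inhibitory and Gq-type G proteins and that is also abundant in the striatum.

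The sequences that follow show what the probes read and what lies ahead of the ligand genes. The probes below are given because each reads coding sequence of a receptor, and they are 60 bases long and written along the transcript. In the Hcrtr1 probe the capitals, at bases 10 to 24, are the codons of the NPxxY motif at the end of the last membrane-spanning helix of this receptor class. That probe spans 1689 bases of the genome (mm9, chr4:129808226-129809914) and so crosses an intron, as does the Hcrtr2 probe, which spans 8058 bases (mm9, chr9:76094212-76102269). The Mchr1 probe lies in 1 block (mm9, chr15:81068324-81068383).
Hcrtr1 probe A_51_P209585: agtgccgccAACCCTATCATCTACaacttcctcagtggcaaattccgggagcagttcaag
Hcrtr2 probe A_52_P469290: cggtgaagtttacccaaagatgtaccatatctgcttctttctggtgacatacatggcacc
Mchr1 probe A_51_P376299: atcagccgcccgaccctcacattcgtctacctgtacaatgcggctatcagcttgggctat
The brightest Hcrt probe (mm9, chr11:100623007-100623066, minus strand) is shown by its bases 20 to 49, since they hold the polyadenylation hexamer, in capitals. The other Hcrt probe starts 463 bases beyond it in the direction of transcription.
Hcrt probe A_55_P2142341, bases 20 to 49: ttggtaaatggcAATAAAgacgattctctg
The 60 bases before the start of both ligand genes are shown for the TATA hexamer they share, again in capitals, as RefSeq gives them on GRCm38.p6.
Pmch, chr10:88091012-88091071, plus strand: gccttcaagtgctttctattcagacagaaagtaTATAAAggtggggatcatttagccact
Hcrt, chr11:100762932-100762991, minus strand: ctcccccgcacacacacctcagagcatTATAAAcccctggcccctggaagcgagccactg

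TATAAA began 27 bases before the start of Pmch and 33 before that of Hcrt. On the gene's strand it was present in the last 60 bases of 944 of 32851 promoters (2.87%). All 5 genes had a promoter entry, and none of the 3 Hcrtr1 entries nor those of Hcrtr2 and Mchr1 held TATAAA on either strand of their 250 upstream bases, where 12.4% of all promoters did. The E-box CACGTG was found 193 bases before the start of Mchr1 and in none of the other members' windows (6.02% of all promoters). The AP-1 motif TGAGTCA was found 88 bases before Pmch alone among the members (4.46% of all promoters), and the full cAMP response element TGACGTCA before none of them (1.55%).

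Between 61.6% and 67.9% of spots were well above background on each array, no spot was saturated, and the single Asmt probe was not well above background on any of the 12 arrays (1.83 to 2.49 on the log2 scale), so its label could not be checked by level. The arrays came from 2 slides, as the barcodes showed. Slide 1 held all WT mice with KO 1 and KO 2. Slide 2 held KO 3 with all swimming WT and swimming KO mice. The swimming effect in wild-type mice and the slide therefore cannot be told apart without the KO mice, the only group on both. Signals below are normalized log2 signals, and a probe entered the tests when some group had it well above background in all 3 of its mice (35230 of 56605 probes, 8 of the 9 member probes). A probe passed the screening criterion with a fold change of at least 2 and an unadjusted p of at most 0.05.

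No member probe passed the screening criterion or an adjusted p of 0.05 in limma in any comparison. Of all tested probes 0.224% passed the criterion in KO against WT, 1.21% in swimming KO against KO, 2.19% in swimming WT against WT, 0.253% in swimming KO against swimming WT and 0.593% for the interaction, the swimming effect in knockout mice minus that in wild-type mice. The adjusted p was under 0.05 for 0.0199% of tested probes in swimming KO against KO, which was 7 probes, and for 0.0% in each of the other comparisons. Both counts moved with single arrays. In swimming KO against KO the adjusted count was 8577 probes (24.3%) without KO 3 and 0 without KO 1, KO 2, swimming KO 1 or swimming KO 2, and the screening count went from 426 to 1187 without KO 3, 131 without KO 1, 124 without KO 2 and 255 without swimming KO 1. In KO against WT the screening count went from 79 to 205 without KO 1, 207 without KO 2 and 124 without WT 1, in swimming KO against swimming WT from 89 to 137 without swimming WT 3, and for the interaction from 209 to 316 without KO 1. At an unadjusted p of at most 0.05, 1 of the 8 member probes was called in KO against WT (5.48% of all tested probes), 3 in swimming KO against KO (21.1%), 1 in swimming WT against WT (26.0%), 2 in swimming KO against swimming WT (6.66%) and 2 for the interaction (7.75%). The calls fell on receptor probes throughout, but most tested member probes read receptors, and Hcrt and Pmch had 1 tested probe each. Neither ligand probe was called, and the lowest unadjusted p was 0.0541, for Pmch in swimming WT against WT.

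**Figure D1:**
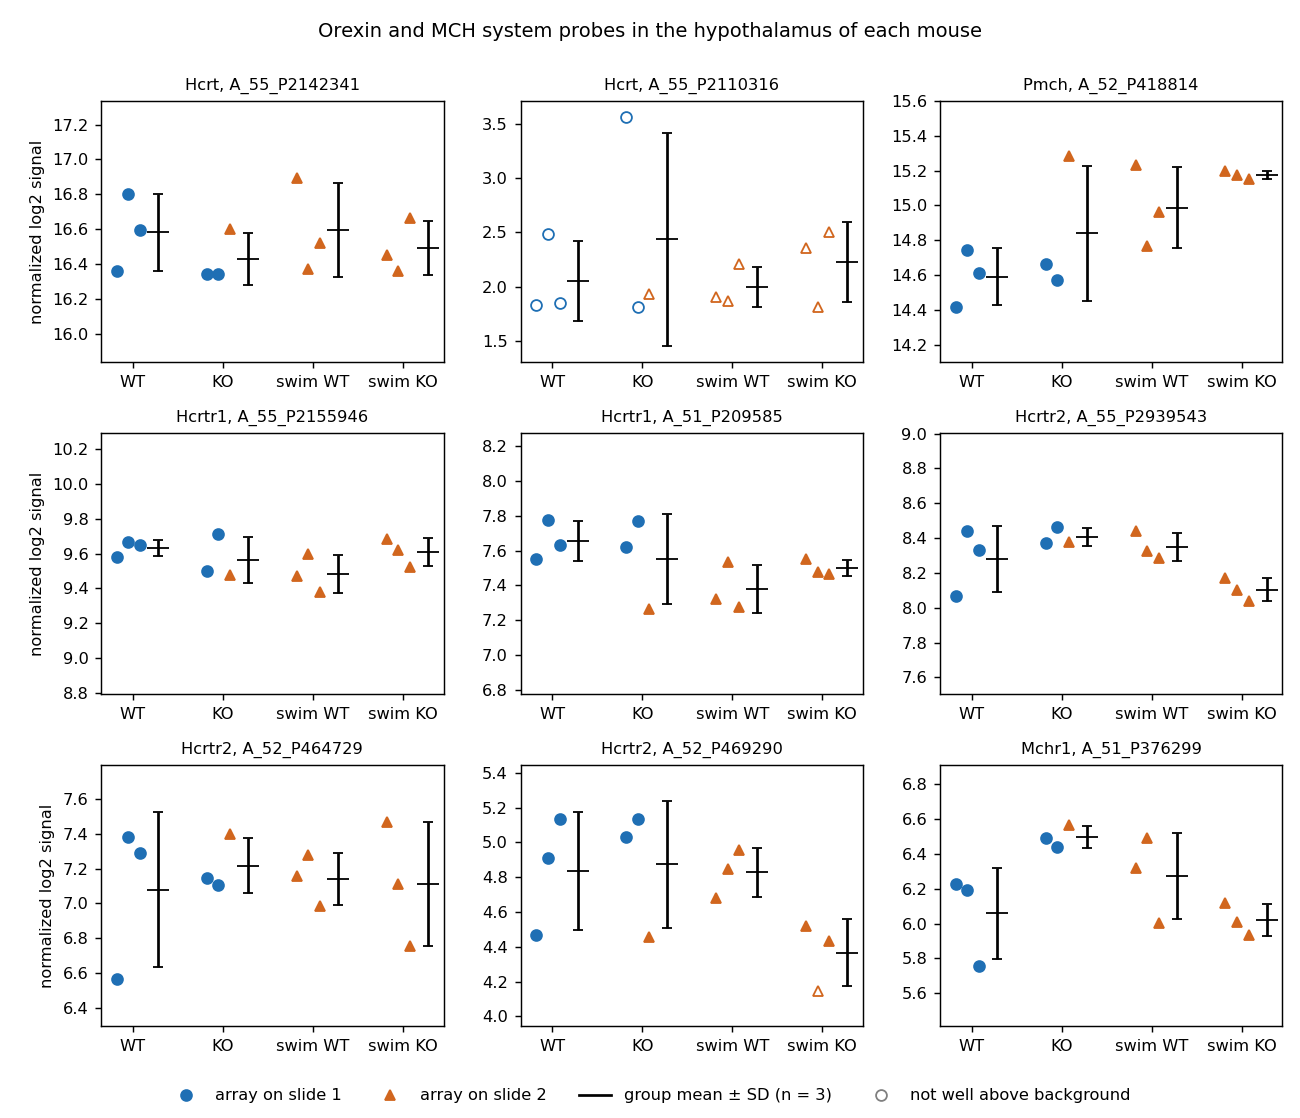
Normalized log2 signal of each of the 9 member probes in each of the 12 mice, by group (WT, KO and, marked swim, swimming WT and swimming KO), with circles for arrays on slide 1, triangles for slide 2, open symbols for signals at background, and bars for the group mean ± SD (n = 3); each panel has its own vertical range. Pmch separates by slide, Mchr1 is high in all 3 KO mice, and the brightest Hcrtr2 probe is low in all 3 swimming KO mice.

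Hcrt, the source of both orexins, was read by its brightest probe well above background in every mouse, without saturation. Its level was 16.36, 16.80 and 16.59 in WT mice 1 to 3, 16.34, 16.34 and 16.60 in KO, 16.89, 16.37 and 16.52 in swimming WT, and 16.45, 16.36 and 16.66 in swimming KO. Quantile normalization gives probes of equal rank an equal value, and at this end of the scale KO 1 and KO 2 had the same value, as did WT 1 and swimming KO 2. The groups overlapped in every comparison, and the highest mouse, swimming WT 1, was 0.55 above the lowest mice, KO 1 and KO 2. Group means were 16.58 ± 0.22, 16.43 ± 0.15, 16.59 ± 0.27 and 16.49 ± 0.16 (SD, n = 3) in the same order, and no neighbours in their order differed beyond that spread. The fitted difference was -0.15 ± 0.16 (SE) for KO against WT (adjusted p = 0.862), 0.01 ± 0.16 for swimming WT against WT (adjusted p = 0.972), 0.06 ± 0.16 for swimming KO against KO (adjusted p = 0.848) and -0.10 ± 0.16 for swimming KO against swimming WT (adjusted p = 0.935). With slide as a term the differences that cross slides turned negative, at -0.25 ± 0.27 for swimming WT against WT and -0.11 ± 0.22 for swimming KO against KO. The second Hcrt probe stayed at background in all 12 mice (1.81 to 3.56), and was not tested.

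Pmch, which encodes MCH and the peptide NEI, was measured by 1 probe (mm9, chr10:87555031-87555090, plus strand), well above background in all 12 mice. Its level was 14.42, 14.74 and 14.61 in WT mice 1 to 3, 14.66, 14.57 and 15.29 in KO, 15.23, 14.77 and 14.96 in swimming WT, and 15.20, 15.18 and 15.15 in swimming KO. The means rose in the order WT (14.59 ± 0.16), KO (14.84 ± 0.39), swimming WT (14.99 ± 0.23) and swimming KO (15.18 ± 0.02, all SD, n = 3), but KO mice were divided, with KO 1 and KO 2 within the WT range and KO 3 the highest mouse of all.
By slide, the 5 mice of slide 1 ranged from 14.42 to 14.74 and the 7 mice of slide 2 from 14.77 to 15.29, with no overlap. Among tested probes 21.8% did not overlap between the slides, and 2 of the 8 member probes, Pmch and the second Hcrtr1 probe, were among them.
Swimming WT and WT mice did not overlap either, with a difference of 0.40 ± 0.18 (SE, unadjusted p = 0.0541, adjusted p = 0.200), and swimming KO exceeded KO by 0.34 ± 0.18 (unadjusted p = 0.0941, adjusted p = 0.304). With slide as a term both differences turned over, to -0.27 ± 0.21 and -0.11 ± 0.17, and KO against WT went from 0.25 ± 0.18 to 0.02 ± 0.13. Swimming KO against swimming WT lies within slide 2 and stayed at 0.19 in both fits (adjusted p = 0.874 without the slide term). The term itself, slide 2 minus slide 1, was 0.67 ± 0.18 for Pmch (adjusted p = 0.0396), above 92.5% of tested probes, and 4670 of them (13.3%) had an adjusted p under 0.05 for it. It rests on KO 3 against KO 1 and KO 2, so what is particular to that mouse and what is particular to the slide cannot be told apart. Without KO 3, which leaves swimming KO on slide 2 against KO on slide 1, swimming KO exceeded KO by 0.56 ± 0.13 (adjusted p = 0.0163). This was the only setting tried in which a ligand passed the adjustment, and 24.3% of all tested probes passed it there.
Parpbp, whose gene overlaps Pmch in the genome, was well above background on 1 array and did not enter the tests.

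Hcrtr1, the receptor that prefers orexin A, was read by a pair of probes, both well above background in all mice. The brighter one (A_55_P2155946, mm9, chr4:129807461-129807520) lay at 9.58, 9.67 and 9.65 in WT mice 1 to 3, 9.50, 9.71 and 9.48 in KO, 9.47, 9.60 and 9.38 in swimming WT, and 9.68, 9.62 and 9.52 in swimming KO. All 12 values lay within 0.33 of each other and the groups overlapped in all 4 comparisons. Its means were 9.63 ± 0.05, 9.56 ± 0.13, 9.48 ± 0.11 and 9.61 ± 0.08 (SD, n = 3), and its largest fitted difference between 2 groups was -0.15 ± 0.08 (SE) for swimming WT against WT (adjusted p = 0.262).
The coding probe printed above was at 7.55, 7.78 and 7.63 in WT, 7.62, 7.77 and 7.26 in KO, 7.32, 7.54 and 7.28 in swimming WT, and 7.55, 7.48 and 7.47 in swimming KO. Swimming WT mice were all below WT mice, by 0.28 ± 0.12 (unadjusted p = 0.0499, adjusted p = 0.192). KO 3 stood with the swimming mice of its slide here as it did for Pmch, and with slide as a term the difference was 0.16 ± 0.15 in the other direction. The slide term was -0.43 ± 0.13 (adjusted p = 0.0563). Over the 12 mice the 2 Hcrtr1 probes gave a Pearson r of 0.82 (permutation p = 0.00148, adjusted over 4 pairs of probes of 1 gene p = 0.00592) and a Spearman rho of 0.76 (permutation p = 0.00586, adjusted p = 0.0234), and r was 0.70 without the 2 mice farthest from the median.

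Hcrtr2, the receptor for both orexins that is found among others on the histamine neurons of the posterior hypothalamus, was lower in swimming KO mice than in KO and swimming WT mice by its brightest probe (A_55_P2939543, mm9, chr9:76074002-76074061), though not after adjustment over all probes. This probe was at 8.17, 8.10 and 8.04 in swimming KO mice 1 to 3, against 8.37, 8.47 and 8.38 in KO and 8.44, 8.32 and 8.28 in swimming WT. WT mice, at 8.07, 8.44 and 8.33, spanned both ranges through WT 1. Means were 8.28 ± 0.19 in WT, 8.41 ± 0.05 in KO, 8.35 ± 0.08 in swimming WT and 8.10 ± 0.07 in swimming KO (SD, n = 3).
Swimming KO was below KO (log2 difference -0.30 ± 0.09, SE, unadjusted p = 0.00822, adjusted p = 0.160) and below swimming WT (-0.24 ± 0.09, unadjusted p = 0.0234, adjusted p = 0.707), while swimming WT against WT was 0.07 ± 0.09 (adjusted p = 0.646) and KO against WT 0.13 ± 0.09 (adjusted p = 0.849). The interaction was -0.37 ± 0.13 (unadjusted p = 0.0170, adjusted p = 0.572). A slide term leaves KO 3 as the only KO mouse set against the swimming KO mice. The comparisons of swimming KO share the swimming KO mice, so they are not separate evidence of each other. With slide as a term they were -0.27 ± 0.13, -0.24 ± 0.09 and -0.38 ± 0.14, in the same direction, but the unadjusted p of swimming KO against KO rose to 0.0686, and it was 0.0533 with the Hcrtr2 probes averaged.
The intron-crossing probe printed above was dimmer, and swimming KO 2 was not well above background. It was at 4.52, 4.15 and 4.43 in swimming KO, 5.03, 5.13 and 4.46 in KO, 4.68, 4.85 and 4.96 in swimming WT, and 4.47, 4.91 and 5.13 in WT. Swimming KO lay wholly below swimming WT (-0.46 ± 0.21, unadjusted p = 0.0496, adjusted p = 0.748). Against KO the difference was -0.51 ± 0.21 (unadjusted p = 0.0339, adjusted p = 0.209), but KO 3 fell among the swimming KO mice, and with slide as a term it was -0.09 ± 0.23. Without KO 3 it was -0.72 ± 0.19 (adjusted p = 0.0234), in the setting where 24.3% of all tested probes passed. The third Hcrtr2 probe (A_52_P464729) ranged from 6.57 to 7.46, overlapped between groups in all comparisons and had no unadjusted p of at most 0.05. Its highest mouse was swimming KO 1 and its lowest WT 1. Between the brightest and the intron-crossing probe r was 0.70 over 12 mice (permutation p = 0.0129, adjusted p = 0.0258) and rho 0.62 (permutation p = 0.0350, adjusted p = 0.0700). The third probe had an r of 0.58 with the brightest (adjusted p = 0.0619), which fell to -0.02 without the 2 mice farthest from the median. Its r with the intron-crossing probe was 0.23 (adjusted p = 0.476). As deviations from group means, r with the brightest probe was 0.78 for the third probe and 0.45 for the intron-crossing probe.

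Mchr1, the receptor for MCH in the mouse, was higher in KO mice than in WT and swimming KO mice, again not after adjustment over all probes. Its probe was well above background in all 12 mice, at 6.49, 6.44 and 6.56 in KO mice 1 to 3, 6.23, 6.19 and 5.76 in WT, 6.32, 6.49 and 6.01 in swimming WT, and 6.12, 6.01 and 5.93 in swimming KO. Every KO mouse was above every WT and every swimming KO mouse, and KO 3 on slide 2 did not stand apart from KO 1 and KO 2 on slide 1. Means were 6.50 ± 0.06 in KO, 6.27 ± 0.25 in swimming WT, 6.06 ± 0.26 in WT and 6.02 ± 0.09 in swimming KO (SD, n = 3), and of the neighbours in this order swimming WT overlapped with both KO and WT, and WT with swimming KO.
KO exceeded WT by 0.44 ± 0.14 (SE, unadjusted p = 0.0123, adjusted p = 0.849), and swimming KO was below KO (-0.48 ± 0.14, unadjusted p = 0.00767, adjusted p = 0.160). Swimming went with 0.21 ± 0.14 in wild-type mice (unadjusted p = 0.168, adjusted p = 0.357), so that the interaction was -0.69 ± 0.20 (unadjusted p = 0.00677, adjusted p = 0.542). The KO mice enter all 3 of the larger values. Without WT 3 the difference of KO from WT was 0.29 (unadjusted p = 0.0494), and with normexp background correction it was 0.27 and that of swimming KO from KO -0.29. With slide as a term these were 0.41 ± 0.17, -0.55 ± 0.21 and -0.66 ± 0.22, and within slide 1 alone KO exceeded WT by 0.41 ± 0.16 (unadjusted p = 0.0575). The slide term leaves KO 1 and KO 2 for KO against WT and the interaction, and KO 3 alone for swimming KO against KO.
Markers of neighbouring tissue were measured beside Mchr1. All 7 striatum markers were tested, and their mean level ranged from 9.12 to 9.58 in WT mice, 9.13 to 9.24 in KO, 9.11 to 10.25 in swimming WT and 9.03 to 9.04 in swimming KO. Drd2 alone of them was lower in swimming KO than in KO at an unadjusted p of at most 0.05 (-0.49 ± 0.15, unadjusted p = 0.00842, adjusted p = 0.161). All 6 choroid plexus markers were tested, with mean levels from 7.89 to 8.55 in WT, 7.70 to 8.85 in KO, 8.35 to 9.05 in swimming WT and 8.06 to 8.26 in swimming KO. They did not move together. Folr1, the folate receptor of that epithelium, Kl and Clic6 had their highest mean in KO as Mchr1 did, and Ttr, its most abundant secreted product, Kcne2 and Otx2 had their lowest mean there. The differences of KO from WT ran from -0.81 for Kcne2 (unadjusted p = 0.138) to 0.62 for Folr1 (unadjusted p = 0.0127), with a median of -0.03 over the list. Folr1 alone of the 6 was called, in that comparison, in swimming KO against KO (-0.49, unadjusted p = 0.0389) and for the interaction (-0.81, unadjusted p = 0.0189). Of all tested probes 5.48%, 21.1% and 7.75% were called in these comparisons. No marker of either list was absent, and their part in the Mchr1 values was not tested.

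**Figure D2:**
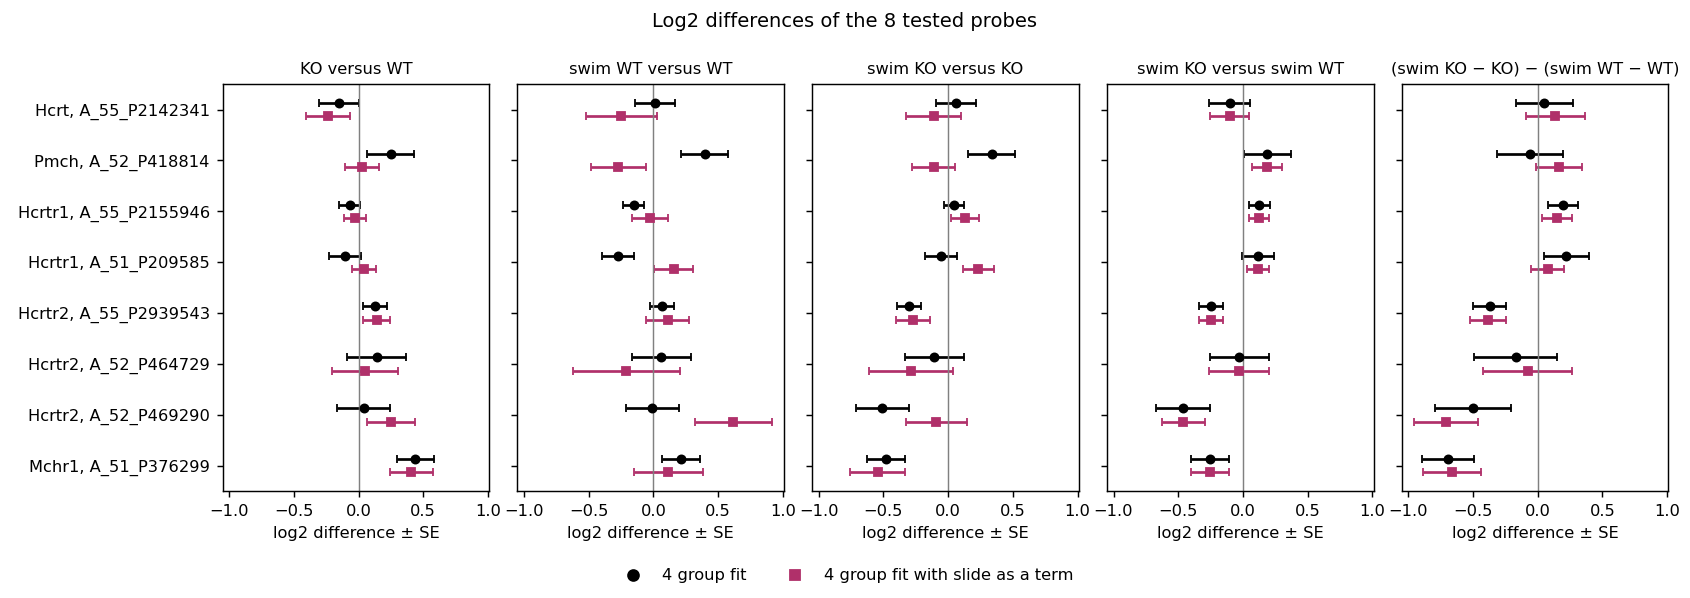
Log2 difference ± SE of the 8 tested member probes in 5 comparisons, from the fit over the 4 groups (black circles) and the same fit with slide as a term (magenta squares); the last panel is the interaction. The Pmch circles and squares fall on opposite sides of 0 for swimming WT against WT and swimming KO against KO, and those of Mchr1 stay together.

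Member probes whose groups did not overlap are given beside the share of all tested probes. In KO against WT 1 of the 8 tested member probes did not overlap (8.58% of all tested probes), in swimming KO against KO 2 (21.5%), in swimming WT against WT 2 (37.6%) and in swimming KO against swimming WT 2 (19.5%). The receptors Mchr1 and Hcrtr2 made up those of swimming KO against KO, Pmch and the coding Hcrtr1 probe those of swimming WT against WT, and Hcrtr2 probes those of swimming KO against swimming WT. The pooled SD within groups was 0.21 for Hcrt, 0.24 for Pmch, 0.10 for the brighter Hcrtr1 probe, 0.11 for the brightest Hcrtr2 probe and 0.19 for Mchr1, where the median of all tested probes was 0.14.

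Levels of the 5 genes were compared mouse by mouse through their brightest probes, in 10 pairs. No pair passed after adjustment. Hcrt and Pmch gave r = 0.41 over 12 mice (permutation p = 0.180, adjusted p = 0.837) and rho = 0.53 (permutation p = 0.0815, adjusted p = 0.520), with r = 0.48 without the 2 mice farthest from the median Hcrt level and r = 0.49 within the 7 mice of slide 2. As deviations from group means r was 0.78, and the permutation p within groups of 0.00761 became 0.0761 after adjustment over the 10 pairs. That value leaves the slides aside, and KO 3, the KO mouse on slide 2, was the highest KO mouse for both ligands. As deviations from slide means r was 0.53 (permutation p within slides = 0.0827, adjusted p = 0.53). Swimming WT 1 was the highest of its group for both ligands, and swimming WT 2 the lowest. Hcrtr2 and Mchr1 gave r = 0.50 (permutation p = 0.0979, adjusted p = 0.837) and rho = 0.50 (permutation p = 0.104, adjusted p = 0.520), with r = 0.78 within slide 2 but -0.04 as deviations from group means. The other 8 pairs had r between -0.36 and 0.31. Slide 1 held 5 mice, among which r was 0.66 for Hcrt and Pmch and 0.19 for Hcrtr2 and Mchr1. Both slides held too few mice for these values to be weighed.

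**Figure D3:**
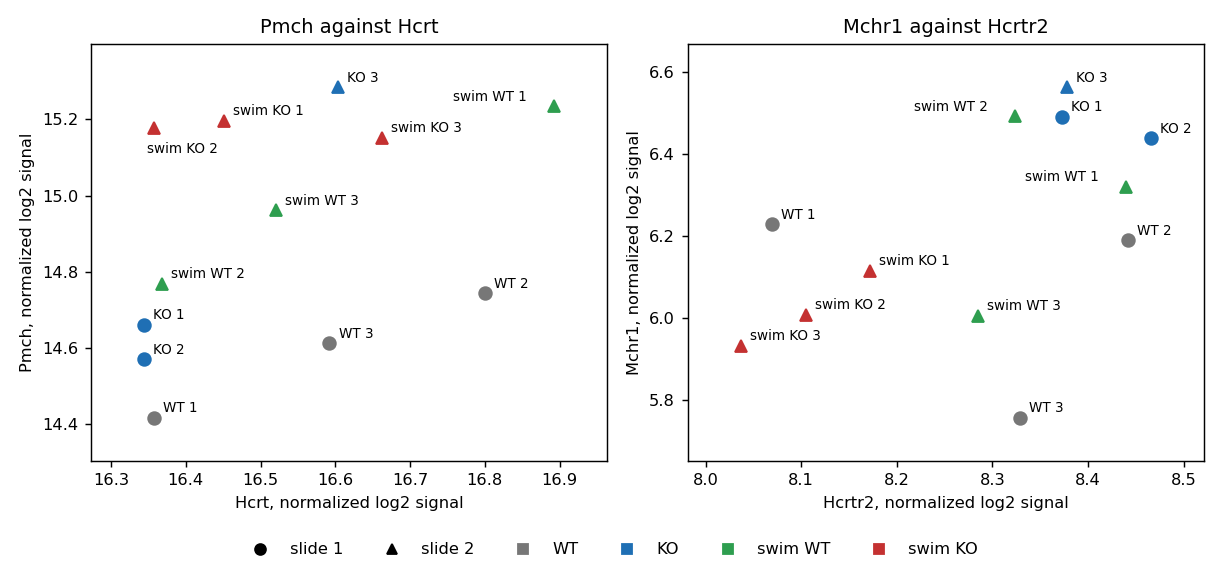
Normalized log2 signal of Pmch against Hcrt (left) and of Mchr1 against Hcrtr2 (right), 1 point per mouse, coloured by group, with circles for slide 1 and triangles for slide 2. On the left the slide 2 mice lie above the slide 1 mice at any Hcrt level; on the right the swimming KO mice lie low for both receptors and the KO mice high.

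Among 17172 genes with a probe well above background on all 12 arrays, the profiles most like each member over the 12 mice were found by Pearson's r and are given as a description. For Hcrt these were Kctd3 (0.84), Clec5a (0.83), Erich4 (0.83), C1ql3 (0.83) and Samd4 (0.78), and Pmch came at rank 952. For Pmch they were Gm12 (0.98), Sf3b1 (0.97), Cox6c (0.97), Secisbp2l (0.97) and Irak2 (0.97), with Hcrt at rank 3763. Hcrtr1 was followed by Gm26908 (0.85), Gm10714 (0.85), Gm5936 (0.85), Morn2 (0.83) and Mrap2 (0.83). Hcrtr2 was followed by Xbp1 (0.95), Pcmtd2 (0.93), Top1 (0.92), Sos2 (0.92) and Fmo5 (0.92), and Mchr1 by Map3k19 (0.93), Cacul1 (0.89), Ets2 (0.88), Stambpl1 (0.86) and Edrf1 (0.86). Hcrtr2 came at rank 1057 for Mchr1. The points share the arrays and their slides, and the Pmch profiles in particular follow a level that separated by slide.

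Of 7 genes listed as partners of Hcrt in orexin neurons 6 were tested, and the neuropeptide gene Qrfp was not well above background on enough arrays. Whether the signal of these genes came from orexin neurons or from other cells of the hypothalamus was not tested. The genes named from here to the coupling proteins were chosen after their values were seen. In swimming KO against KO 1 was lower, Igfbp3, a binding protein of insulin-like growth factors enriched in these neurons (-0.32 ± 0.10, unadjusted p = 0.00767, adjusted p = 0.160). In swimming WT against WT 1 was lower, Pdyn, the precursor of the dynorphin that orexin neurons release with orexin (-0.33 ± 0.13, unadjusted p = 0.0279, adjusted p = 0.151). Each was 1 of 6 genes, where 21.1% and 26.0% of all tested probes were called. These were -0.13 and -0.05 with slide as a term, where Igfbp3 was called in KO against WT (0.26, unadjusted p = 0.0146) and for the interaction (-0.29, unadjusted p = 0.0305) instead. That fit called 1931 and 3803 of the 35230 tested probes in KO against WT and for the interaction. The list's median difference was -0.12 in swimming KO against KO and -0.09 in swimming WT against WT, where the median of all tested probes was -0.04 and -0.04. None of the 5 genes expressed with Pmch, Cartpt, Tacr3, Gad1, Gad2 and Nrxn3, was called in any comparison, and their median difference lay between -0.09 and 0.06. Cartpt, a satiety peptide precursor found in many MCH neurons, differed by -0.30 in both swimming WT against WT (unadjusted p = 0.0652) and swimming KO against KO (unadjusted p = 0.0674). These were -0.11 and -0.17 with slide as a term.

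From the genes through which the 3 receptors can signal, 11 were chosen and all were tested. They encode G proteins, phospholipases, a channel and an exchanger, and the list is not complete. Of these 1 was called in KO against WT (5.48% of all tested probes), 2 in swimming KO against KO (21.1%), 4 in swimming WT against WT (26.0%) and 1 in swimming KO against swimming WT (6.66%). Plcb4, a Gq-activated phospholipase, was higher in KO than WT (0.24, unadjusted p = 0.0355), in swimming KO than KO (0.23, unadjusted p = 0.0442) and in swimming WT than WT (0.31, unadjusted p = 0.0109). Gnai3, an inhibitory G protein subunit, was lower in swimming KO than KO (-0.23, unadjusted p = 0.0161) and in swimming WT than WT (-0.20, unadjusted p = 0.0296). Swimming WT against WT also held Gnaq, the Gq subunit (0.33, unadjusted p = 0.0384), and the phospholipase Plcb3 (-0.23, unadjusted p = 0.0119), which was higher in swimming KO than in swimming WT (0.19, unadjusted p = 0.0304). None had an adjusted p under 0.05, and Plcb4 changed sign in these 3 comparisons when its probes were averaged (-0.12, -0.19 and -0.26). With slide as a term, Gnaq in swimming WT against WT was -0.22, Gnai3 0.07, Plcb4 0.01 and Plcb3 -0.14, and none of these 4 calls was kept. Gnai2, another inhibitory subunit, was called there instead, at -0.70 (unadjusted p = 0.0284) against 0.50 without the term, in a fit that called 6.18% of all tested probes. In that fit no gene of this list was called in KO against WT or swimming KO against KO, while Plcb3 stayed at 0.19 in swimming KO against swimming WT, a comparison within slide 2. Of the target cell markers, Hdc of histamine neurons and Th of dopamine neurons, neither was called.

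**Figure D4:**
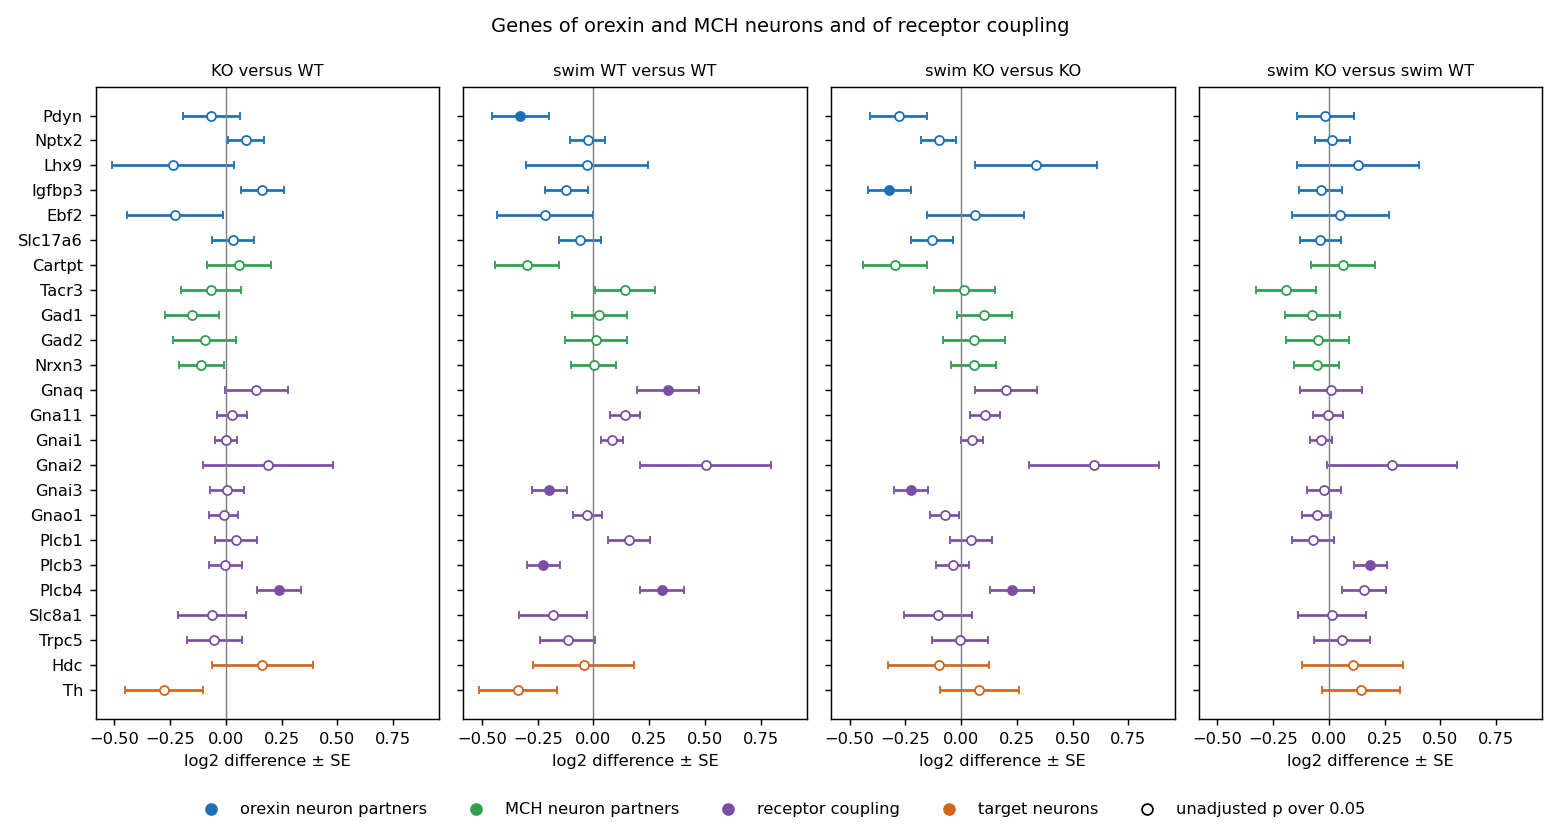
Log2 difference ± SE of the 24 tested genes listed as partners in orexin neurons or MCH neurons, as target neuron markers or for receptor coupling. Each gene has 1 probe, in 4 comparisons without a slide term, and filled points have an unadjusted p of at most 0.05. Filled points are most numerous among the coupling genes in swimming WT against WT, and there are none among the MCH neuron genes.

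The other hypothalamic lists marked the piece of tissue taken. All 7 further peptides of the lateral and dorsal hypothalamus, all 5 arcuate, 5 suprachiasmatic, 3 ventromedial and 4 mammillary markers were tested, and none was called at an unadjusted p of at most 0.05 in any comparison. Of all tested probes 5.48% were called in KO against WT, 21.1% in swimming KO against KO and 26.0% in swimming WT against WT. The share was 6.66% in swimming KO against swimming WT and 7.75% for the interaction. The mean level of the 7 peptides ranged from 13.46 to 13.60 in WT, 13.30 to 13.58 in KO, 13.33 to 13.64 in swimming WT and 13.36 to 13.47 in swimming KO. Of 4 paraventricular and supraoptic markers, 1 was higher and 2 were lower in swimming WT than WT. The higher one was the transcription factor Sim1, the only list gene past the screening criterion there (2.01 ± 0.70, unadjusted p = 0.0162, adjusted p = 0.123). It was well above background on 9 of 12 arrays, and it was -1.10 ± 0.43 with slide as a term. Of the striatum markers, 2 were lower in swimming KO than swimming WT, with Adora2a, the adenosine receptor of striatal projection neurons, past the criterion (-1.33 ± 0.51, unadjusted p = 0.0266, adjusted p = 0.715). Its swimming WT mice were at 5.64, 6.99 and 8.07 and its swimming KO mice at 5.69, 5.39 and 5.63, and without swimming WT 3 the difference was -0.74 (unadjusted p = 0.107), short of the criterion. The unadjusted p was at most 0.05 in 10 of 17 alternatives. Of 5 thalamus markers 1 was lower in swimming KO than KO, and of 6 cortex markers 5 were tested and none was called. Of 5 pituitary hormone and factor genes only Tshb entered the tests, and it was lower in KO than WT (-0.22, unadjusted p = 0.0466). Gh and Pou1f1 were not well above background on any array, Prl was on 3 and Cga on 5. Cga differed widely between mice. It was at 11.51 in KO 1, 10.58 in KO 2, 10.87 in swimming KO 1, 10.71 in swimming WT 3 and 5.90 in WT 2. In the other mice it was at 2.83 or lower. The part of pituitary tissue in these values was not tested.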

How the data were processed

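Total RNA of the hypothalamus of 12 mice was labelled and hybridised by the authors to Agilent single-colour mouse arrays, read with Agilent Feature Extraction 10.7.1.1 and quantile-normalized in GeneSpring. The deposited table gave log2 signals per probe, which were analysed, and the deposited scanner files gave intensity and detection per spot, with probe positions on mm9. The authors' comparison tables (fold changes, p-values and 24 signal columns) were not used. Groups came from the labels. Replicates are separate mice.

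Probes that some group had well above background in all 3 mice were fitted in 1 limma 3.58.1 model over the 4 groups (R 4.3.3), with Benjamini-Hochberg adjustment over 35230 probes. An unadjusted p of at most 0.05 with a fold change of at least 2, the authors' criterion, was counted. The brightest probe led for each gene, and list genes past that criterion were to be named. Members and the 16 gene lists (83 genes) were chosen with earlier results of these data known. Correlations used 100000 permutations, two-sided. Alternatives comprised other values, scalings, filters and tests, slide as a term, and leaving out each array. The fit with slide as a term was run on simulated data, and the main fit was not. Precision is limited by the number of arrays.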

Additional observations from a re-analysis of the deposited data

Results flagged for a closer look

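The response to swimming differed between genotypes at an unadjusted p of at most 0.05 for 2 of the 8 tested member probes. These were the Mchr1 probe and the brightest Hcrtr2 probe, and neither passed after adjustment over all tested probes. For Mchr1 the swimming effect in knockout mice minus that in wild-type mice was -0.69 on the log2 scale (adjusted p = 0.542), with swimming KO below KO and swimming WT above WT in the means. For the brightest Hcrtr2 probe it was -0.37 (adjusted p = 0.572). The other Hcrtr2 probes were not called, and with probes averaged per gene Mchr1 alone was. Among all tested probes 7.75% reached that p for this difference. The 3 KO mice had the highest mean of the 4 groups for both genes. The cause was not tested. Groups of 3 were too small for a search for single deviating mice.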

How the results depend on the processing

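No alternative brought a member past the screening criterion or a pair of members past the adjusted correlation test. Over all tested probes, replicate numbers showed no general pairing of the mice. Same-numbered arrays of different groups correlated between -0.19 and 0.24 in their deviations, and 5 of 12 arrays correlated best with one of their own number. Pdyn, Cartpt, Agrp and Fezf1 nonetheless fell from mouse 1 to mouse 3 in every group and Plcb1 rose, while many other list genes did neither. A replicate block took the SE of Mchr1 in KO against WT from 0.14 to 0.12 (unadjusted p = 0.00712, adjusted p = 0.748). What this order reflects was not tested. With a replicate block 0 member probes passed in each comparison, and in all 73, 394, 764, 90 and 211 probes passed in KO against WT, swimming KO against KO, swimming WT against WT, swimming KO against swimming WT and the interaction, against 79, 426, 770, 89 and 209 without it. With normexp these were 2, 124, 263, 5 and 12, with no detection filter 487, 1015, 1524, 808 and 955, well above background on all 12 arrays 9, 231, 441, 13 and 47, and with slide as a term 89, 169, 277, 90 and 263. Fitting only the groups compared gave 51, 146, 795 and 81 in the first 4, and the methods' t-test 24, 57, 730 and 51, with 0, 0, 1635 and 0 after Benjamini-Hochberg adjustment.

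Of 677 values of single genes under an alternative, 534 kept direction and side of an unadjusted p of 0.05, 103 lost it, 10 gained it and 30 changed sign. Mchr1 kept its direction and that p for the interaction in all 20 alternatives (-0.83 to -0.43), Hcrtr2 in 18 of 20. These alternatives are not separate tests. For the interaction, slide as a term and leaving out KO 3 give the same fit. The detection filters and the replicate block leave the estimate as it was and change only its SE. Signs changed with slide as a term for Pmch in swimming KO against KO (-0.11), swimming WT against WT (-0.27) and the interaction (0.16), Hcrt in swimming KO against KO (-0.11) and swimming WT against WT (-0.25), the coding Hcrtr1 probe (0.16), Gnai3 (0.0733), Gnaq (-0.22) and Sim1 (-1.10) in swimming WT against WT, and within slide 2 for Pmch (-0.11) and Hcrt (-0.11) in swimming KO against KO. They changed with 75th percentile scaling for Hcrt in swimming WT against WT (-0.12) and swimming KO against swimming WT (0.0208), with normexp for Hcrt (-0.0062) and Gnai3 (0.017) in swimming WT against WT, and with probes averaged per gene for Hcrtr1 in swimming KO against KO (-0.0042) and Plcb4 in KO against WT (-0.12), swimming KO against KO (-0.19) and swimming WT against WT (-0.26). Leaving out 1 array, Hcrt ranged from -0.026 to 0.15 in swimming KO against KO, -0.14 to 0.12 in swimming WT against WT, -0.22 to 0.0464 in swimming KO against swimming WT and -0.0634 to 0.20 for the interaction, Hcrtr2 from -0.0363 to 0.15 in swimming WT against WT, and Pmch from -0.19 to 0.16 for the interaction. The cause was not tested.

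With 3 mice a group, differences within the SE cannot be resolved, and Mchr1 and the intron-crossing Hcrtr2 probe lay nearest to background.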
